A study of Danio rerio with 6 samples.

Results

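The miR-103 and miR-107 family of zebrafish is described here as 4 mature strands in ZF4 cells, a line of fibroblasts that was established from zebrafish embryos. Its members are all rows of the deposited table named dre-miR-103 or dre-miR-107 with any letter or arm, which are dre-miR-103, dre-miR-107a-3p, dre-miR-107a-5p and dre-miR-107b, out of 414 miRNAs (349 known and 65 predicted). Small RNA was sequenced from 3 control samples of ZF4 cells in normal culture at 28°C and from 3 samples cultured at 18°C for 30 days, called cold acclimated cells, which the series design calls biological replicates. The study's abstract gives 30 days for the control condition as well. Both groups are the same unmodified line in the same serum-containing medium, so the samples describe 1 cell line and no tissue. The question of the series was which miRNAs change in level when these cells live at the lower temperature.

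The family is a set of near-identical miRNAs that most vertebrates carry inside their pantothenate kinase genes, whose enzymes start the synthesis of coenzyme A. In mice, miR-103 and miR-107 are known for lowering the insulin sensitivity of liver and fat, in part through caveolin-1, and in human cancer cells for targeting Dicer, the enzyme that cuts miRNA hairpins. The strand from the 3′ side of the hairpin (3p) is the main strand that binds mRNA targets, and the strand from the 5′ side (5p) is its partner. The main strands belong to a wider group that also holds miR-15, miR-16 and miR-457 and shares the bases AGCAGC close to the 5′ end, where a miRNA recognises its targets. The mature sequences of the family were not used here, so the base at which AGCAGC starts in them is not given and may differ. To show the shared bases, a strand from outside the family, that of the dre-miR-16b mimic that the study had synthesised, is printed. It is given in the 5′ to 3′ direction with AGCAGC, bases 2 to 7 of this strand, in capitals.
dre-miR-16b mimic, sense strand: uAGCAGCacguaaauauuggag

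In the RefSeq gene table of the assembly GRCz12tu, each of the 3 hairpin genes lies within the span of a different pantothenate kinase gene. dre-mir-103 lies within pank2, between mavs and loxl3b. dre-mir-107, the source of both dre-miR-107a strands, lies within pank1b next to slc16a12b, and mir107b lies within pank1a next to slc16a12a. Neither the strand nor the exons of these genes were looked up. pank4 holds no miRNA gene in that table.

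The deposited table gives each miRNA in TPM, here its reads per 1000000 reads assigned to miRNAs, with no length term. The libraries held 11748241 to 14960610 such reads, so that 1 read was worth 0.0668 to 0.0851 TPM. Rose and fell are used here for miRNAs with an adjusted p under 0.01 by limma on log2(TPM + 1), among the 310 with a mean above 1.5 TPM, and DE-miRNA for those whose fitted change on that scale also exceeds 2.5-fold, a log2 value of 1.32. Under this rule 51 of the 310 rose (16.5%) and 45 fell (14.5%). This split was 32 and 77 when libraries were scaled to their clean reads, 51 and 67 after median-of-ratios scaling and 37 and 64 when dre-let-7a and dre-miR-100-5p were taken out of the sums. Of 6 strands typical of fibroblasts and mesenchymal cells, dre-miR-21 alone held 379977 to 421105 TPM. The other 5 had lower means in the cold. Of these dre-miR-199-3p fell by 1.04 on the log2 scale (limma, adjusted p = 0.0063), and the others did not pass the test, at -1.58 for dre-miR-214, -0.71 for dre-miR-145-5p, -0.68 for dre-miR-199-5p and -0.19 for dre-miR-143. Control replicate 3 stood apart in some of them, with 374 TPM of dre-miR-143 against 4765 and 4665 TPM in control replicates 1 and 2, and 456 TPM of dre-miR-214 against 1722 and 1637 TPM. Without that library the calls for the family members were the same, at log2 fold changes of 0.93 for dre-miR-103, 0.42 for dre-miR-107a-3p, -0.94 for dre-miR-107b and 1.59 for dre-miR-107a-5p. Among markers of other cells, the epithelial strands summed to 59.9 to 122 TPM, nearly all dre-miR-141-3p. The neuronal ones summed to 7.37 to 12.1 TPM, nearly all dre-miR-9-5p, and dre-miR-124-3p held at most 0.401 TPM in any library. The muscle, liver, red blood cell and white blood cell markers reached at most 5.61, 3.34, 3.94 and 0.759 TPM. Only 1 strand each of the liver, muscle, neuron, epithelium and red blood cell lists could be tested, and none of these was called. No white blood cell marker could be tested. The lists are short and leave out strands such as dre-miR-375, known from pancreatic islets, which rose by 0.85 (limma, adjusted p = 0.0058). Outside the lists, another miR-124 strand, dre-miR-124-4-5p, rose from a mean of 0.301 to 10.3 TPM (limma, adjusted p = 3.3e-06). The log2 fold change of dre-miR-124-4-5p, 3.11, was the highest of the 310. Its control mean lies below the 1 TPM added before taking logs, so the size and rank of that change depend on it. This strand passed the 1.5 TPM limit only through its cold acclimation libraries. The part of cell make-up in the levels of the family was not tested.

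All 4 members passed the filter on low values. In control cells the order of their levels was dre-miR-103, dre-miR-107a-3p, dre-miR-107b and dre-miR-107a-5p, with no overlap between neighbours in any control library. In cold acclimated cells dre-miR-103 and dre-miR-107a-5p rose, dre-miR-107b fell, and dre-miR-107a-3p did not pass the test. Of the 4 members, 2 rose, against 16.5% of all tested miRNAs, and 1 fell, against 14.5%. None of the 4 had overlapping values between the conditions, as was also the case for 58.1% of the miRNAs tested. Altogether the family held 783, 768 and 780 TPM in control replicates 1, 2 and 3, and 1362, 1539 and 1017 TPM in cold acclimation replicates 1, 2 and 3. Its mean therefore went from 777 ± 8.01 TPM to 1306 ± 265 TPM (SD, n = 3 each), or from 0.0777% to 0.131% of the miRNA reads. The family sum was not computed on another scaling, and its size depends on the scaling. With libraries scaled to their clean reads, the log2 fold change of dre-miR-103 was 0.60, against 0.91 in the main fit. That of dre-miR-107a-3p was 0.15, against 0.45.

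**Figure D1:**
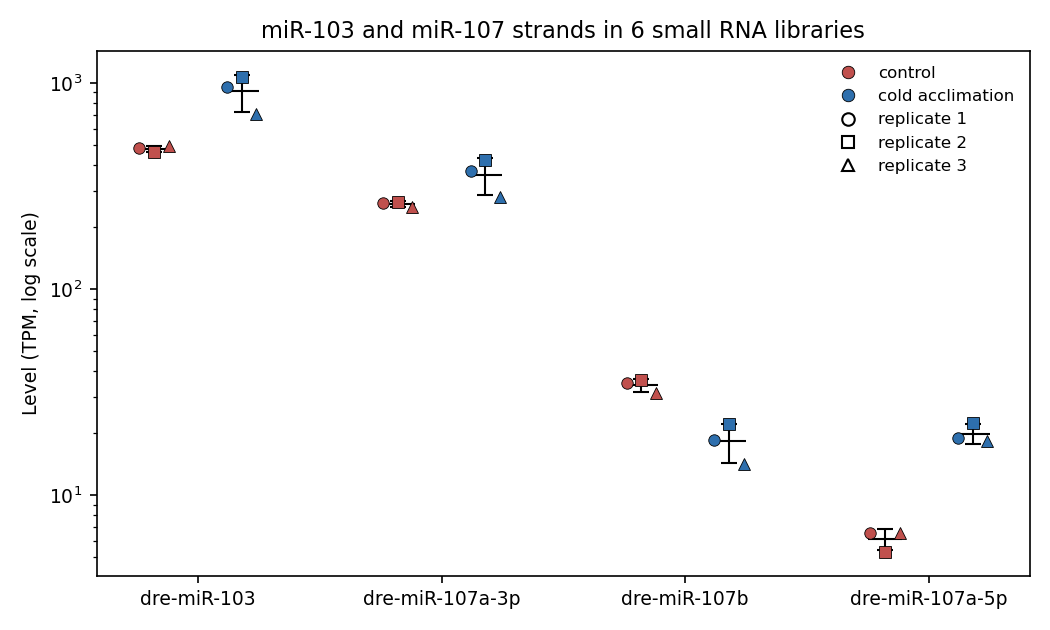
Level of the 4 members in TPM (vertical log axis) in each control (red) and cold acclimation (blue) library, with the mean and SD of 3 libraries as a black bar. dre-miR-103 and dre-miR-107a-5p lie higher in the cold, dre-miR-107b lies lower, and dre-miR-107a-5p and dre-miR-107b come to about the same level in cold acclimated cells, at 19.9 and 18.3 TPM on average.

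dre-miR-103, the most abundant member and the one within pank2, had 481, 461 and 492 TPM in control replicates 1, 2 and 3. In cold acclimation replicates 1, 2 and 3 it had 953, 1071 and 705 TPM. Every cold acclimation library lay above every control library, and the third cold acclimation library was the lowest of its group. The mean went from 478 ± 15.4 to 910 ± 187 TPM (SD, n = 3 each), and log2(TPM + 1) rose by 0.91 ± 0.18 (SE; limma, adjusted p = 0.0029). Its place among the 414 miRNAs of a library moved from between 68 and 73 in control cells to between 44 and 50 in the cold. The fitted change lay under the 2.5-fold threshold, so that dre-miR-103 was no DE-miRNA, and the ratio of the mean TPM was 1.90. Without cold acclimation replicate 1 or 2 the adjusted p from limma was 0.0202 or 0.0151, at log2 fold changes of 0.86 and 0.78.

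dre-miR-107a-3p, the main strand of the hairpin within pank1b, had 261, 265 and 250.0 TPM in control replicates 1, 2 and 3 and 372, 423 and 279 TPM in cold acclimation replicates 1, 2 and 3. These values lay in the same order among the cold acclimation libraries as those of dre-miR-103, and the groups were separated by the small gap between 265 and 279 TPM. The mean went from 259 ± 7.85 to 358 ± 73.1 TPM (SD, n = 3 each). The log2 fold change of 0.45 ± 0.19 (SE) did not pass the test (limma, adjusted p = 0.0731). With libraries scaled to their clean reads, it was 0.15 (adjusted p = 0.472), and the third cold acclimation library lay within the range of the control libraries.

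dre-miR-107b, encoded within pank1a, moved in the opposite direction. It had 34.96, 36.2 and 31.3 TPM in control replicates 1, 2 and 3 and 18.5, 22.2 and 14.2 TPM in cold acclimation replicates 1, 2 and 3. The lowest control library and the highest cold acclimation library were separated by more than the SD of either group. The mean went from 34.2 ± 2.56 to 18.3 ± 3.99 TPM (SD, n = 3 each), and log2(TPM + 1) changed by -0.88 ± 0.22 (SE; limma, adjusted p = 0.0079). These levels rest on 454 to 523 reads per control library and 199 to 261 reads per cold acclimation library. The call was close to the threshold. With control replicate 1 or 2 or any cold acclimation library removed, the adjusted p from limma lay between 0.0108 and 0.0349, at log2 fold changes from -1.03 to -0.72, whereas it was 0.0032 without control replicate 3.

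dre-miR-107a-5p, the partner strand of dre-miR-107a-3p, was the DE-miRNA of the family. It had 6.55, 5.32 and 6.55 TPM in control replicates 1, 2 and 3, from 98, 73 and 95 reads, and 18.9, 22.5 and 18.4 TPM in cold acclimation replicates 1, 2 and 3, from 228, 264 and 257 reads. The 95% Poisson intervals, which cover counting error only, reached up to 8.01 TPM in the control libraries and began at 16.2 TPM in the cold acclimation libraries. The mean went from 6.14 ± 0.709 to 19.9 ± 2.22 TPM (SD, n = 3 each), and log2(TPM + 1) rose by 1.55 ± 0.20 (SE; limma, adjusted p = 0.00027). Among the 310 miRNAs, 36 were DE-miRNAs (11.6%). dre-miR-107a-5p had the 14th highest log2 fold change of the 310. It passed the adjusted p in each of 16 alternative settings but stayed under the 2.5-fold threshold with a pseudocount of 5 TPM (log2 fold change 1.16) and with libraries scaled to their clean reads (1.25).

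At 18°C the partner strand dre-miR-107a-5p therefore stood near the level of the main strand dre-miR-107b. Their ratio within a library was 0.187, 0.147 and 0.209 in control replicates 1, 2 and 3 and 1.02, 1.01 and 1.29 in cold acclimation replicates 1, 2 and 3. In cold acclimated cells the levels of these strands overlapped across libraries, from 18.4 to 22.5 TPM and from 14.2 to 22.2 TPM. Within each of these libraries dre-miR-107a-5p was the higher one. It had 228, 264 and 257 reads in replicates 1, 2 and 3, against 223, 261 and 199 reads of dre-miR-107b. This order was not tested.

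The ratios of TPM between members within a library do not depend on how the library was scaled. On the log2(TPM + 1) scale this holds only roughly, because of the added 1 TPM. None of the ratios between members overlapped between the conditions. How often ratios between other miRNAs overlap was not computed, and of the single miRNAs tested 58.1% did not overlap. For each read of dre-miR-107b there were 13.8, 12.7 and 15.7 reads of dre-miR-103 in control replicates 1, 2 and 3. In cold acclimation replicates 1, 2 and 3 there were 51.6, 48.2 and 49.5. The mean ratio was 14.1 ± 1.51 at 28°C and 49.8 ± 1.71 at 18°C (SD, n = 3 each). On the log2(TPM + 1) scale the ratio of dre-miR-107b to dre-miR-103 differed by -1.79 in the cold, with p = 0.1 by an exact permutation test (two-sided), which cannot go lower with 3 against 3 libraries.

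The other main strands were compared in the same way. dre-miR-107a-3p exceeded dre-miR-107b by 7.59 ± 0.350 times at 28°C and by 19.6 ± 0.564 times at 18°C (SD, n = 3 each). dre-miR-103 exceeded dre-miR-107a-3p by 1.84, 1.74 and 1.97 times in control replicates 1, 2 and 3 and by 2.56, 2.53 and 2.53 times in cold acclimation replicates 1, 2 and 3. On the log2(TPM + 1) scale the differences were -1.33 for dre-miR-107b to dre-miR-107a-3p and 0.46 for dre-miR-103 to dre-miR-107a-3p. For each of the 4 ratios compared, the strand ratio of dre-miR-107a included, an exact permutation test (two-sided) gave p = 0.1, which is also the Benjamini-Hochberg adjusted value over the 4.

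**Figure D2:**
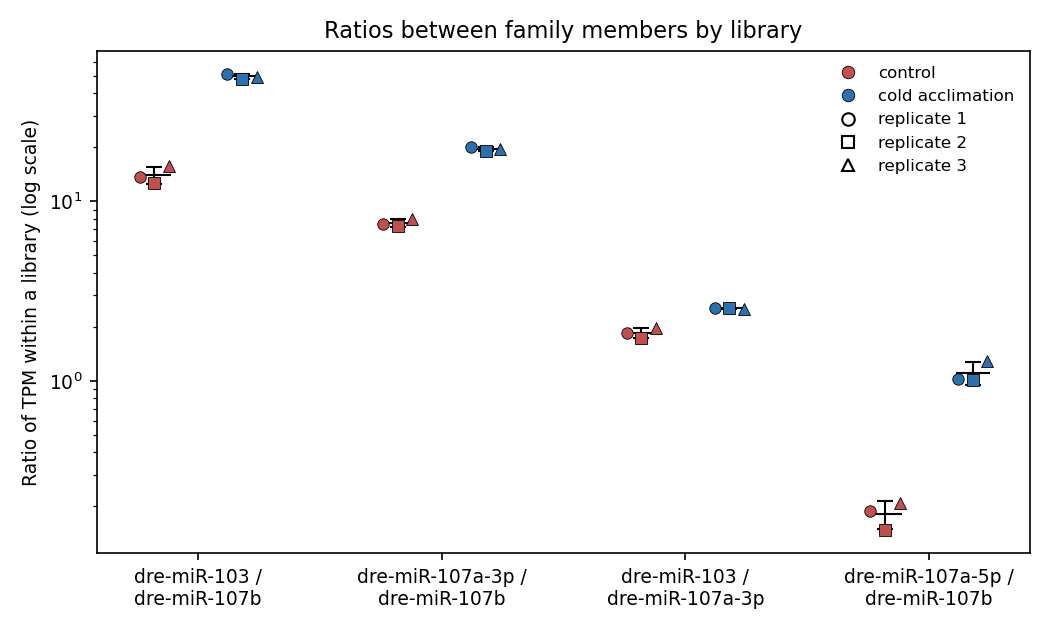
Ratio of the TPM of each pair of strands within a library (vertical log axis) in control (red) and cold acclimation (blue) libraries, with the mean and SD of 3 libraries as a black bar. The ratio of dre-miR-103 to dre-miR-107b lies between 12.7 and 15.7 in control and between 48.2 and 51.6 in cold acclimation libraries, and the ratio of dre-miR-107a-5p to dre-miR-107b goes from about 0.181 to 1.11.

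As shares of the family, dre-miR-103 made up 61.5% ± 1.51 at 28°C and 69.6% ± 0.282 at 18°C (SD, n = 3 each). dre-miR-107a-3p went from 33.3% ± 1.23 to 27.4% ± 0.0799 and dre-miR-107b from 4.40% ± 0.356 to 1.40% ± 0.0443. The share of dre-miR-107a-3p was thus lower in the cold although its mean in TPM was higher.

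The cold acclimation libraries differed from each other in the level of the family but hardly in the proportions of its main strands. The SD of the TPM over these libraries was 20.5% of the mean for dre-miR-103, 20.4% for dre-miR-107a-3p and 21.8% for dre-miR-107b, with replicate 2 the highest and replicate 3 the lowest each time. The SD of the ratio of dre-miR-103 to dre-miR-107a-3p was 0.634% of its mean, over 3 libraries and with counting error not set beside it. In the control libraries that ratio varied more, with an SD of 6.16% of its mean, and the family sum varied less, at 1.03%. The median-of-ratios scaling factors of cold acclimation replicates 1, 2 and 3 were 1.06, 1.16 and 0.898, in the same order as the family levels. After this scaling dre-miR-103 had 902, 925 and 786 TPM in these libraries and 460 to 517 TPM in the control libraries, and its SD over the cold acclimation libraries was 8.57% of the mean. The part of library composition in the spread was not tested further. The near-identical main strands may also share reads that end before the bases at which they differ. The sources used here do not say how such reads were assigned, and the part of shared reads in these levels was not tested.

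The balance between the strands of the dre-miR-107a hairpin moved towards the partner strand. Of all its reads, 2.45%, 1.97% and 2.55% were dre-miR-107a-5p in control replicates 1, 2 and 3, and 4.83%, 5.05% and 6.19% in cold acclimation replicates 1, 2 and 3. The 95% Wilson intervals, which cover counting error only, lay between 1.57% and 3.11% in control libraries and between 4.25% and 6.97% in cold acclimation libraries. The mean share went from 2.32% ± 0.312 to 5.35% ± 0.733 (SD, n = 3 each).

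This change was set against all known miRNAs with both strands measured, paired by name and called hairpins here. Some names, such as dre-miR-181a, have further 3p strands listed under separate names, so their ratio may not come from 1 hairpin. Of the 103 known miRNAs listed with a 5p and a 3p strand, 54 had both above a mean of 1.5 TPM. Their log2 ratio of 5p to 3p was compared in a limma fit of its own. In this fit 8 hairpins had a higher ratio in cold acclimated cells (14.8%) and 2 a lower one (3.70%), and the median change was 0.23. dre-miR-107a had a change of 1.10 ± 0.19 (SE; limma, adjusted p = 0.0032), the 10th highest of the 54. The changes with the largest size were those of dre-miR-301b (2.64), dre-miR-15b (-1.58) and dre-miR-2185 (1.49), and dre-miR-15b has its main strand in the same wider group as dre-miR-107a-3p. The 3p strand of dre-miR-2185 had means of 0.943 TPM in control and 2.68 TPM in cold acclimated cells. These lie near the 1 TPM added before taking logs, so the size of that change depends on it. dre-miR-301b also had low levels, with 3p means of 6.87 and 3.67 TPM. The call for dre-miR-107a held without control replicate 3 or cold acclimation replicate 1, but the adjusted p lay between 0.0132 and 0.0151 without any 1 of the other libraries, and was 0.0138 with a pseudocount of 5 TPM, at which the change was 0.72. Removing control replicate 1 left 4 hairpins with a higher ratio, removing cold acclimation replicate 2 left 1 and removing cold acclimation replicate 3 left 5.

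**Figure D3:**
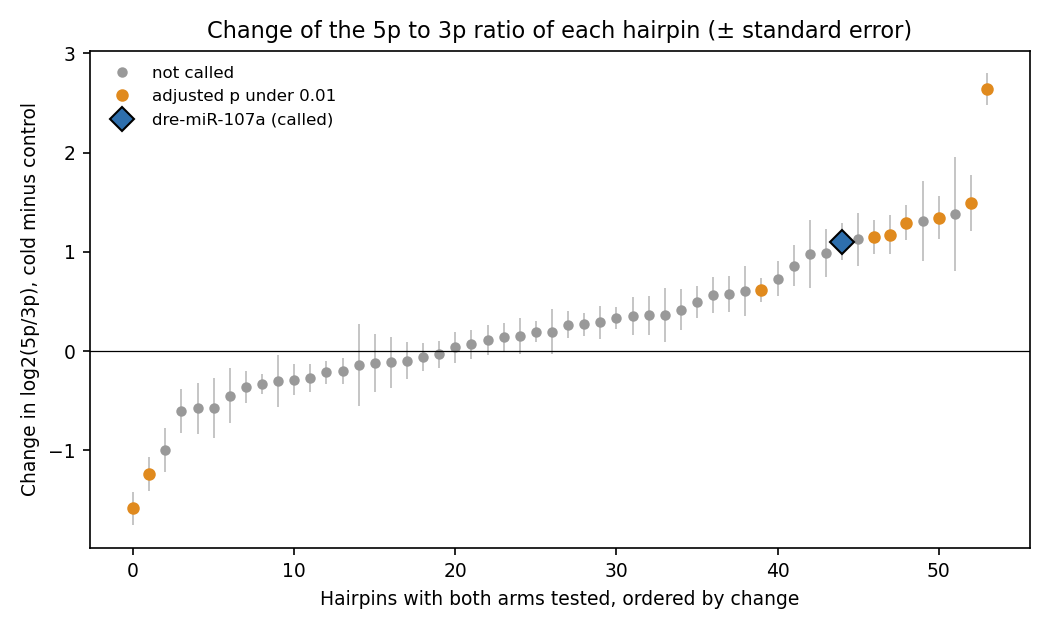
Change of the log2 ratio of the 5p to the 3p strand between cold acclimated and control cells (vertical axis, with standard error) for 54 hairpins ordered by that change. Orange points passed the test, and dre-miR-107a (blue diamond) lies at 1.10, among the 8 hairpins that passed with a higher ratio.

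Since the main strands share AGCAGC with miR-15, miR-16 and miR-457, the other members of that wider group were read from the same fit. Of 8 listed strands, all of which were tested, 2 rose and 1 fell, against 16.5% and 14.5% of all tested miRNAs, with a median log2 fold change of 0.0061 against 0.019 over all tested miRNAs. dre-miR-16b, of a cluster known in mammals for slowing the cell cycle, had 2219, 2438 and 2398 TPM in control replicates 1, 2 and 3 and 10679, 13735 and 9009 TPM in cold acclimation replicates 1, 2 and 3. Its log2(TPM + 1) rose by 2.22 ± 0.16 (SE; limma, adjusted p = 6.7e-06). dre-miR-15a-5p had 262, 281 and 385 TPM in control replicates 1, 2 and 3 and 924, 1165 and 641 TPM in cold acclimation replicates 1, 2 and 3. It rose by 1.53 on the same scale (limma, adjusted p = 0.00076).

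dre-miR-16c-5p had 661, 721 and 792 TPM in control replicates 1, 2 and 3 and 412, 472 and 487 TPM in cold acclimation replicates 1, 2 and 3. It fell by 0.66 on the log2 scale (limma, adjusted p = 0.0067), a call that held with 1 library left out only where that library was control replicate 3. The other 5 strands had log2 fold changes between -0.19 and 0.39. Summed, the 8 strands held 6030 to 7827 TPM in control libraries and 13986 to 19700 TPM in cold acclimation libraries, most of it dre-miR-16b in the cold.

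**Figure D4:**
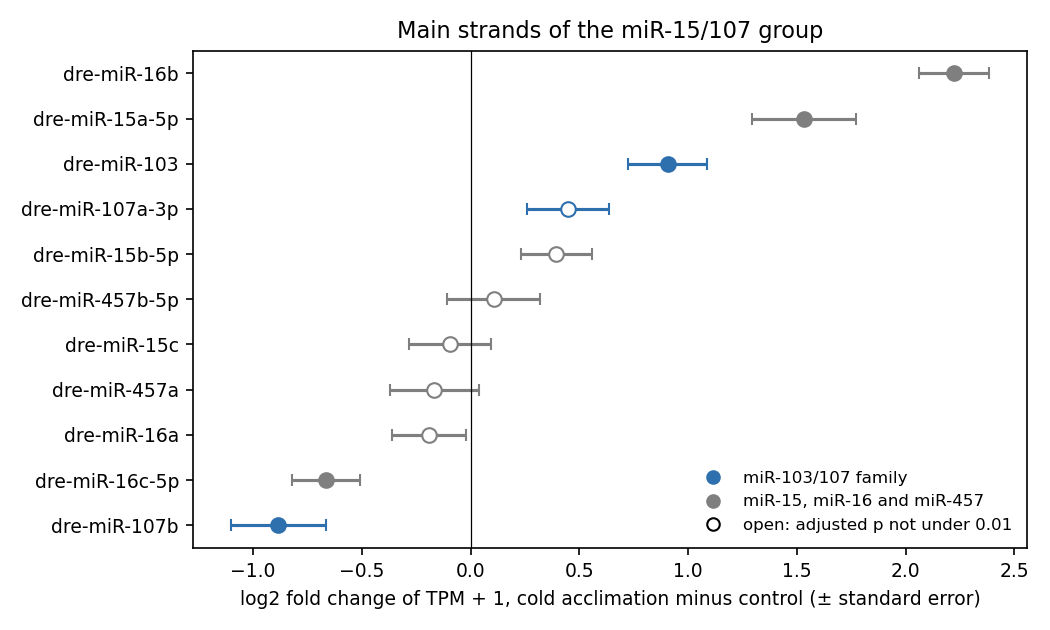
log2 fold change of TPM + 1 (horizontal axis, cold acclimation minus control, with standard error) of the 3 main strands of the miR-103 and miR-107 family (blue) and of the 8 other strands of the wider group (grey), filled where the adjusted p was under 0.01. dre-miR-107b at -0.88 is the lowest and dre-miR-16b at 2.22 the highest.

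Of 14 miRNAs from families known in mammals for roles in liver, fat or pancreas, 4 rose and none fell, against 16.5% and 14.5% of all tested miRNAs. The list counts dre-miR-27a-3p, dre-miR-27b-3p, dre-miR-27c-3p and dre-miR-27d separately. Their median log2 fold change was 0.13, against 0.019 over all tested miRNAs. dre-miR-27c-3p, of a family known from fat cells, rose by 0.98 on the log2 scale (limma, adjusted p = 0.0028). dre-miR-34a rose by 1.33 (adjusted p = 0.0058), dre-miR-375, known from pancreatic islets, by 0.85 (adjusted p = 0.0058) and dre-miR-192 by 0.68 (adjusted p = 0.0073). This count depended on scaling and on single libraries. In libraries scaled to their clean reads, 0 rose and 3 fell. Taking dre-let-7a and dre-miR-100-5p out of the sums left 2 that rose and 2 that fell, and median-of-ratios scaling gave 4 and 1. The number that rose was 0 when cold acclimation replicate 1 or 2 was removed and 1 when control replicate 1 or 2 was. Without control replicate 3, 5 rose and 2 fell. dre-miR-103 was called in each of these scalings, at log2 fold changes of 0.60, 0.75 and 0.82 (limma, adjusted p = 0.0093, 0.0064 and 0.0011). Like the list, it was not called without cold acclimation replicate 1 or 2 (limma, adjusted p = 0.0202 and 0.0151).

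The miRNAs whose pattern over the 6 libraries was most like that of each member were sought among the other 306 tested, by Pearson's r of log2(TPM + 1). The libraries fall into 2 groups and share their scaling, so high values are common and are given as a description. For dre-miR-103 the closest were dre-miR-738 (r = 0.990), dre-miR-15a-5p (0.982) and dre-miR-722 (0.982). For dre-miR-107a-3p they were dre-miR-1306 (0.996), the predicted dre-miR-N63 (0.978) and dre-miR-22a-3p (0.962). dre-miR-107a-5p was closest to dre-miR-212-5p (0.991), dre-miR-16b (0.989) and dre-miR-124-4-5p (0.989), and dre-miR-107b to dre-miR-140-3p (0.996), the predicted dre-miR-N24 (0.988) and dre-miR-199-3-3p (0.983). No miRNA was among the 3 closest of more than 1 member.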

How the data were processed

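Small RNA libraries of 3 control and 3 cold acclimation samples gave single-end reads of 50 bp. Per the study, adapters were trimmed, reads of low quality or unfit length were discarded, and the clean reads were mapped with bowtie 2.3.0 to the zebrafish entries of miRBase 22. miRCat predicted additional miRNAs. The deposited values are CPM, reads per 1000000 miRNA reads without a length term, which the authors name TPM. Values of up to 20 reads were whole multiples of 1 read, within 7.4e-09 reads, and all read numbers given here were obtained from these steps. No column was left out, and 0 pairs of libraries had identical values.

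limma 3.58.1 (R 4.3.3, eBayes with a trend) was run on log2(TPM + 1) for miRNAs with a mean above 1.5 TPM, about 18 to 22 reads, unpaired, with Benjamini-Hochberg adjustment over all of them. The 2.5-fold and 0.01 thresholds are those of the study, whose test was different. The minimum of about 18 to 22 reads follows the study's minimum mean level, for which its methods name no unit. Ratios within a library were compared with exact permutation tests. The limma fit was tested on simulated data. Alternatives were other pseudocounts, filters, scalings and thresholds, a replicate block and each library left out.

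The members, lists and tests were chosen with earlier results of these data known. Named miRNAs are the members, the wider AGCAGC group and the metabolic list where called, the 3 most alike in pattern and the 3 hairpins with the largest strand change. A planned comparison of pairs with the same seed was not made, since the mature sequences were not used here. Python 3.11.15 with matplotlib 3.10.9 made the figures.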

Additional observations from a re-analysis of the deposited data

How the results depend on the processing

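The direction of each member, of each ratio between members and of the dre-miR-107a strand ratio was the same in every alternative run. The median log2 fold change of all tested miRNAs was 0.019, and moved to -0.23 in libraries scaled to their clean reads and to -0.11 when dre-let-7a and dre-miR-100-5p were taken out of the sums. With clean reads 32 miRNAs rose and 77 fell, with known miRNAs alone 27 fell, and at an adjusted p under 0.05, 77 fell. With 1 library left out, 24 to 68 rose and 18 to 68 fell. The log2 fold change of dre-miR-103 then lay between 0.78 and 1.08, that of dre-miR-107a-3p between 0.32 and 0.62, that of dre-miR-107b between -1.03 and -0.72 and that of dre-miR-107a-5p between 1.46 and 1.60. dre-miR-107b had an adjusted p of 0.0155 without the filter on low values, at the same log2 fold change of -0.88, where more miRNAs were tested.

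With a pseudocount of 5 TPM, which pulls strands with few reads towards each other, the ratio of dre-miR-107b to dre-miR-103 changed by -1.66, that to dre-miR-107a-3p by -1.20 and that of dre-miR-107a-5p to dre-miR-107a-3p by 0.72. With 1 library left out these changes lay between -1.87 and -1.72, between -1.37 and -1.31 and between 0.99 and 1.18. A higher 5p to 3p ratio was called in 5 hairpins with a pseudocount of 5 TPM, in 16 at an adjusted p under 0.05 and in 1 to 8 with 1 library left out. A lower one was called in 1 hairpin with a filter at 7.5 TPM, in 4 at an adjusted p under 0.05 and in 1 to 3 with 1 library left out.

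The replicate numbers of the groups are shared. Over the tested miRNAs same-numbered libraries deviated together with r = 0.015, 0.142 and 0.060, and 6 of 6 libraries correlated best with their own number. These values are small and do not decide whether the libraries were paired, and the main fit treated them as unpaired. With a replicate block 39 miRNAs rose and 30 fell, and dre-miR-107b had an adjusted p of 0.0113 at a log2 fold change of -0.88. The calls for the other members and the dre-miR-107a strand ratio did not change with the block. In the lists, dre-miR-16c-5p was not called with the block, and of the metabolic miRNAs 1 rose, dre-miR-27c-3p. The planned tests on read counts were not run, since the deposited values are CPM and each library held fewer low values than were required here to pass them to a count model. Depth limits dre-miR-107a-5p most, at 73 to 98 reads per control library.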
